A study of Mus musculus with 11 samples.

Results

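NF-kB is a family of transcription factors built from 5 related subunits, and cells that use it also make the proteins that switch it off. The 5 subunit genes (Nfkb1, Nfkb2, Rel, Rela and Relb) and 5 genes for inhibitors and atypical IkB proteins (Tnfaip3, Nfkbia, Nfkbiz, Nfkbid and Nfkbie), 10 of the 54418 genes counted, are described here in mouse thymocytes, as T cells still developing in the thymus are called. The 10 genes were listed by name as parts of the NF-kB pathway and were picked with knowledge of the measured differences between genotypes, so they count as selected on the CPM differences from wt in these same libraries. Those differences between genotypes are therefore given as a description, with no p for any of the 10, and how many of them passed the threshold of the fit over all genes is given beside the share of all genes, with nothing read from it. The list has no cut-off in expression or fold change.

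RNA was measured in 11 mice. The 4 wt mice carried none of the deletions, the 4 Zmat3-/- mice lacked the RNA-binding protein ZMAT3 in the whole body, and the 3 Puma-/-p21-/-Zmat3-/- mice (TKO) lacked in addition PUMA (gene Bbc3), which triggers apoptosis, and p21 (gene Cdkn1a), which arrests the cell cycle. All were age-matched young adults of 8 to 12 weeks on a C57BL/6-WEHI background, and the thymocytes were untreated and not sorted into stages. The deletions were inherited ones, so the cells around the thymocytes lacked the same genes. The comparisons ask which transcripts differ without ZMAT3 alone and without the 3 TRP53 targets together. TRP53 is the tumour suppressor that induces all of them.

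In a resting cell, IkB proteins hold NF-kB dimers in the cytoplasm. Signals from the T cell receptor or from TNF family receptors activate the IKK complex, which marks IkB for destruction and frees the dimers to enter the nucleus. Among the genes they switch on are IkBα (Nfkbia) and A20 (Tnfaip3), a ubiquitin-editing enzyme that shuts off signalling upstream of IKK, so both serve as feedback inhibitors. In the thymus the pathway is known for its part in selection, in the survival of maturing T cells and in the making of regulatory T cells.

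Feedback runs through DNA sites that NF-kB binds near the start of its target genes, so candidate sites are shown first. RefSeq start sites on GRCm38.p6 gave 12 windows of 250 bases before the start for 7 of the 10 genes, all but Nfkb1, Nfkbiz and Relb. The 10-base kB consensus, read on both strands, was found in the windows of 6 of these 7 genes, all but Rela. It was present in 3.90% of the 32851 windows of all genes and in 4.46% of the 27025 genes. A match is a run of letters, and binding was not measured. Other matches lay before Nfkb2 and Nfkbid, and a further one before Rel overlaps the site shown for it, shifted by 1 base. In the sites below, 30 bases each and written on the strand of the gene, capitals mark the 10 bases of the consensus:
Tnfaip3, 12 bases before the start, chr10:19015411-19015440, minus strand: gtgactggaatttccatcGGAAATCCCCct
Tnfaip3, 125 bases before the start, chr10:19015516-19015545, minus strand: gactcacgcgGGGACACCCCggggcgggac
Nfkbia, 29 bases before the start, chr12:55492657-55492686, minus strand: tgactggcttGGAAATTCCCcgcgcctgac
Nfkbie, 106 bases before the start, chr17:45555584-45555613, plus strand: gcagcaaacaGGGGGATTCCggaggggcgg
Nfkbid, 181 bases before the start, chr7:30422215-30422244, plus strand: gggccgaacaGGAATTCCCCgtgcgcgggg
Rel, 92 bases before the start, chr11:23771042-23771071, minus strand: cgtaagcagcGGGAAATCCCcccccctccc

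None of these sites lies in an exon of its gene in GENCODE M21, where Tnfaip3 as a whole begins 247 bases before the RefSeq start used here. The whole window of Nfkbia, which had the highest level per length of the 10 genes and no exon of its own in the window, is given as an example of the surroundings of such a site, again with the consensus in capitals:
Nfkbia, chr12:55492648-55492897, minus strand: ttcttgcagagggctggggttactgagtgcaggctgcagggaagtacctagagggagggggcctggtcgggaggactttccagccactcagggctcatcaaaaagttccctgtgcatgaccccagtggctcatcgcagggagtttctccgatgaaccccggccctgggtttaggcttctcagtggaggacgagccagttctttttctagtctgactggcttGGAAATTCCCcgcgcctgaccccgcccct

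Libraries held 17669715 to 80207003 estimated counts per mouse, and the 10 genes had between 332 (Relb) and 44777 (Tnfaip3) counts in a mouse. All 10 passed the filter on low counts in every comparison. Levels are given as CPM, that is, counts scaled to a common library size with TMM factors. The 10 thymocyte markers summed to 10700 to 15300 CPM over the mice, and all 10 were present, in keeping with the labelled cell type. In such bulk RNA, fewer cells of a type and less RNA per cell cannot be told apart. Transcripts of the deleted genes were still counted, and Zmat3 was at 9.88, 12.2, 26.8 and 26.8 CPM in wt, 5.34 to 6.85 CPM for Zmat3-/- mice and 7.78 to 8.25 CPM among TKO mice. Transcripts of Bbc3 and Cdkn1a were counted at 12.9 to 15.2 and 2.49 to 3.52 CPM in TKO mice, against 16.8 to 20.1 and 3.53 to 10.4 CPM in wt mice, with no overlap. The wt mice were not alike. Mice 1 and 2 correlated at 0.982 with each other and mice 3 and 4 at 0.982, while pairs across these 2 sets went down to 0.895, in log2 CPM across genes. In wt mice 1 and 2, long transcripts were counted less and short ones more. The median level of the longest 25% of genes (exons of at least 6.50 kb together) minus that of the shortest 25% (up to 2.54 kb), each gene centred on its own mean, was −0.97 and −0.69 on the log2 scale in these mice, 0.33 and 0.34 in wt mice 3 and 4, and 0.010 to 0.30 in the 7 mutant mice. The study adjusted for sex, which the labels do not give. Xist was at 505 and 620 CPM in wt mice 1 and 2 and at 1.70 and 2.54 CPM in wt mice 3 and 4. In the Zmat3-/- mice Xist was at 1090, 1350, 1.03 and 0.955 CPM and the balances were 0.010, 0.069, 0.15 and 0.16. In the TKO mice Xist was at 1480, 2.11 and 0.806 CPM and the balances were 0.078, 0.075 and 0.30. A relation between Xist and the balance was not tested. Each log2FC of the 10 genes against wt is therefore also given without wt mice 1 and 2 and without wt mice 3 and 4, as are values of the pathway and early-response lists. Leaving out either pair also leaves wt mice of high or of low Xist only.

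Tnfaip3 was the gene of the 10 that stood apart. It encodes A20 and lies on chromosome 10 from 19000910 to 19015657, minus strand, with 7.23 kb of exons. The wt mice had 104, 125, 140 and 138 CPM. The Zmat3-/- mice had 421, 446, 451 and 448 CPM. The TKO mice had 439, 478 and 602 CPM. All 7 mutant mice were thus above all 4 wt mice, and the 2 mutant genotypes overlapped each other. Means were 127 ± 16.4 CPM for wt, 441 ± 14.0 CPM for Zmat3-/- and 506 ± 85.0 CPM for TKO mice (SD, n = 4, 4 and 3), 3.48-fold and 3.99-fold the wt mean in the mutants. In edgeR the log2FC was 1.80 (SE 0.13) for Zmat3-/- against wt, 1.95 (SE 0.16) for TKO against wt and 0.14 (SE 0.077) for TKO against Zmat3-/-. The first 2 comparisons share the 4 wt mice and are not independent. Without wt mice 1 and 2 the log2FC was 1.65 and 1.80, and without wt mice 3 and 4 it was 1.96 and 2.12. The longest 25% of genes, to which Tnfaip3 belongs, had a median log2FC of 0.16 for Zmat3-/- and 0.17 for TKO against wt, and 4 of 3392 and 3 of 3342 of them, Tnfaip3 included, reached its value. Without wt mice 1 and 2 the medians were −0.084 and −0.055 and the counts 22 of 3469 and 6 of 3375. Without wt mice 3 and 4 the medians were 0.46 and 0.47 and the counts 42 of 3483 and 37 of 3364. Tnfaip3 was picked with its difference known, so nothing is read from these counts.

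Nfkbia encodes IkBα, the inhibitor that binds NF-kB dimers most dynamically. It lies on chromosome 12 from 55489410 to 55492647, minus strand, and has 1.61 kb of exons. Its level was 206, 207, 131 and 127 CPM in the wt mice, 157, 159, 168 and 161 CPM in the Zmat3-/- mice and 157, 175 and 179 CPM in the TKO mice. All 7 mutant mice lay between the lower and the higher pair of wt mice. The log2FC was −0.050 (SE 0.17) for Zmat3-/- against wt, −0.017 (SE 0.21) for TKO against wt and 0.032 (SE 0.070) for TKO against Zmat3-/-. Its sign against wt followed the wt mice used. The log2FC was 0.30 and 0.34 without wt mice 1 and 2, and −0.34 and −0.30 without wt mice 3 and 4, in Zmat3-/- and TKO mice respectively.

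Within each library the ratio of Tnfaip3 to Nfkbia sets the feedback inhibitors against each other without scaling by library size. The wt mice had ratios of 0.505, 0.606, 1.07 and 1.08. The Zmat3-/- mice had 2.68, 2.80, 2.69 and 2.78, and the TKO mice 2.79, 2.73 and 3.37. The groups of mutant mice lay wholly above the wt mice, which differed among themselves by a larger factor than the mutant mice did.

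Nfkbiz encodes IkBζ, an atypical IkB protein that works in the nucleus as a cofactor for some NF-kB target genes. It lies on chromosome 16 from 55811375 to 55838899, minus strand, with 5.02 kb of exons. The wt mice had 19.8, 21.9, 29.3 and 31.3 CPM, the Zmat3-/- mice 37.0, 39.6, 36.7 and 40.8 CPM, and the TKO mice 38.2, 40.9 and 41.6 CPM. All mutant mice were above all wt mice, and the mutant genotypes overlapped. The mean was 1.51-fold (Zmat3-/-) and 1.57-fold (TKO) that of wt, with a log2FC of 0.59 (SE 0.16) and 0.61 (SE 0.19). It was 0.32 and 0.35 without wt mice 1 and 2, and 0.90 and 0.93 without wt mice 3 and 4, so the direction was the same with either pair of wt mice and the size was not. Against Nfkbia in the same library, Nfkbiz stood at 0.0961, 0.106, 0.223 and 0.245 in wt mice, 0.219 to 0.254 without Zmat3 alone and 0.233 to 0.243 among TKO mice, with overlap.

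The other inhibitors did not separate by genotype. Nfkbid encodes IkBNS, another nuclear IkB protein, on chromosome 7 from 30421732 to 30428746, plus strand, 14.1 Mb from Bbc3. It had 33.6, 32.4, 24.6 and 24.3 CPM in wt, 29.5, 28.3, 31.2 and 31.3 CPM in Zmat3-/- and 29.2, 28.3 and 30.7 CPM in TKO mice, and the mutant mice again fell between wt mice 1 and 2 above and wt mice 3 and 4 below. Its log2FC was 0.074 (SE 0.12) and −0.0051 (SE 0.15) against wt, with 0.28 and 0.21 without wt mice 1 and 2 and −0.12 and −0.19 without wt mice 3 and 4.

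Nfkbie encodes IkBε, a cytoplasmic inhibitor of the classical kind, on chromosome 17 from 45555703 to 45563169, plus strand, 16.5 Mb from Cdkn1a. It had 47.8, 47.7, 46.0 and 41.4 CPM in wt, 49.9, 45.3, 42.6 and 41.0 CPM in Zmat3-/- and 43.2, 39.2 and 52.5 CPM in TKO mice. The 3 genotypes overlapped throughout, and the wt mice spread least for this gene, with the highest 1.16-fold the lowest. The log2FC was −0.027 (SE 0.093) and −0.074 (SE 0.11) against wt, and without wt mice 1 and 2 it was 0.016 and −0.025, against −0.080 and −0.11 without wt mice 3 and 4.

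**Figure D1:**
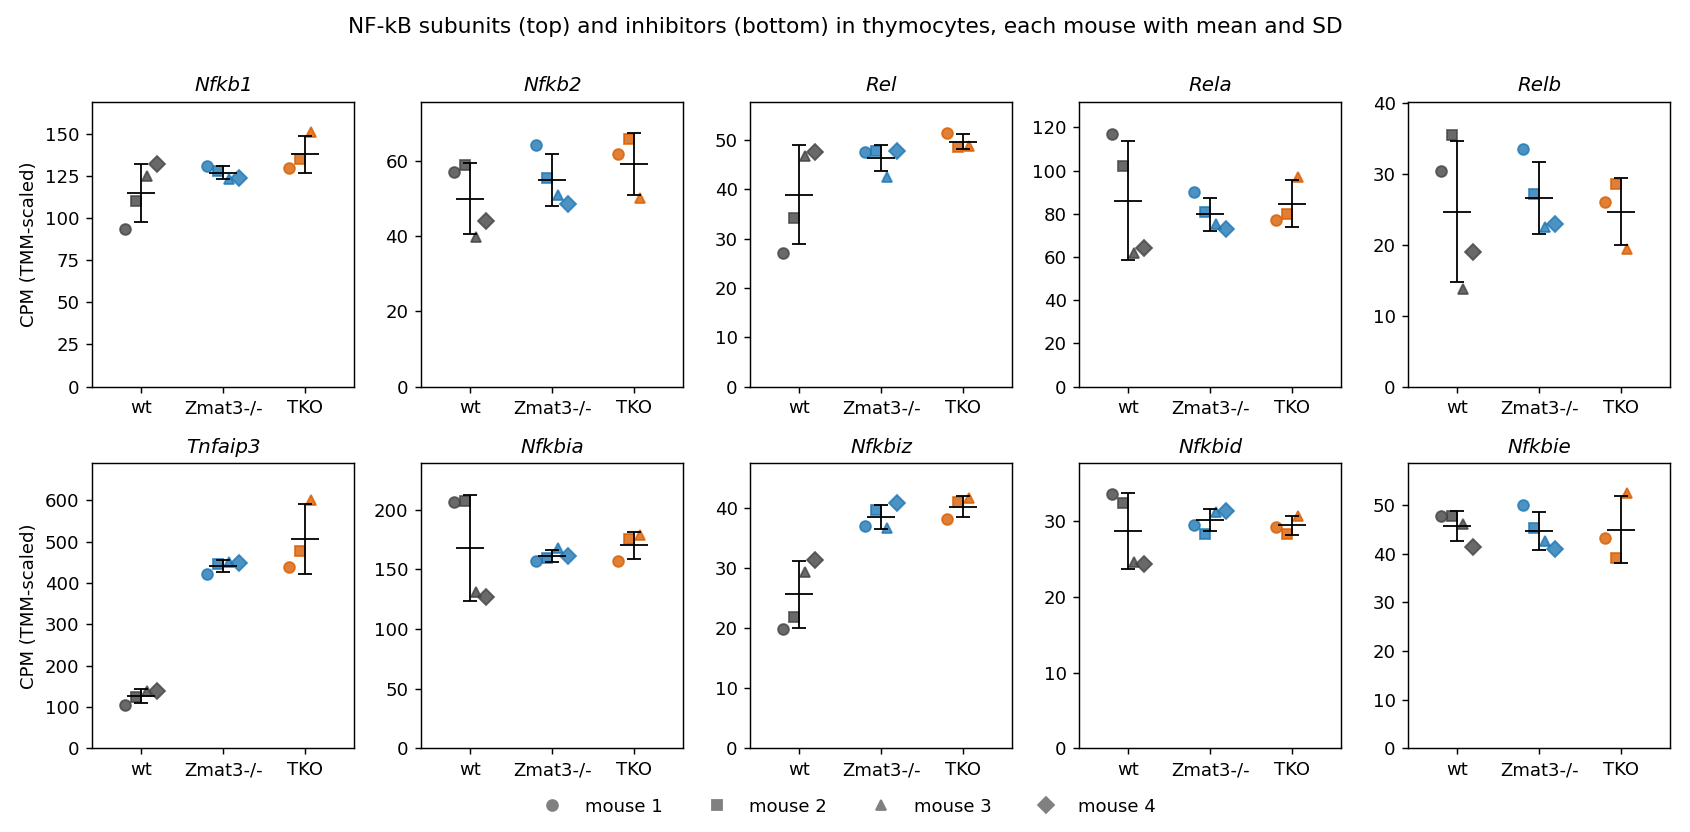
Level of each gene in CPM (vertical axis, from 0) for each mouse of the 3 genotypes, with subunits above and inhibitors below; points are mice, symbols give the replicate number, and bars are the mean and SD. Tnfaip3 is at 104 to 140 CPM in wt and 421 to 602 CPM in mutant mice, while for Rela, Relb, Nfkbia and Nfkbid wt mice 1 and 2 lie above wt mice 3 and 4 with the mutants between or overlapping.

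Among the subunits, Rel had the largest log2FC against wt in both mutant genotypes. It encodes c-Rel, a subunit prominent in lymphocytes, on chromosome 11 from 23736847 to 23770970, minus strand, with 7.47 kb of exons. The wt mice had 27.1, 34.1, 46.8 and 47.5 CPM, the Zmat3-/- mice 47.6, 47.8, 42.4 and 47.7 CPM, and the TKO mice 51.3, 48.6 and 48.8 CPM. The 3 TKO mice were above every other mouse, with 48.6 CPM in the lowest of them against 47.8 CPM in the highest Zmat3-/- mouse. The log2FC was 0.26 (SE 0.19) for Zmat3-/- against wt, 0.31 (SE 0.22) for TKO against wt and 0.050 (SE 0.087) for TKO against Zmat3-/-. Without wt mice 1 and 2 it was −0.043 and 0.015, and without wt mice 3 and 4 it was 0.61 and 0.68, so the value was close to 0 when wt mice 1 and 2 were not used.

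Nfkb1 encodes p105, the precursor of the p50 subunit, on chromosome 3 from 135584655 to 135691547, minus strand, 103 Mb from Zmat3. With 12.1 kb it has the longest exons of the 10 genes. It was counted at 93.6, 110, 125 and 132 CPM in wt, 131, 128, 123 and 124 CPM in Zmat3-/- and 130, 135 and 151 CPM in TKO mice. The mutant mice overlapped wt mice 3 and 4 and were above wt mice 1 and 2. The log2FC against wt was 0.14 (SE 0.13) and 0.22 (SE 0.15), with −0.043 and 0.044 without wt mice 1 and 2 and 0.33 and 0.42 without wt mice 3 and 4.

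Nfkb2 encodes p100, the precursor of p52 that acts in the non-canonical pathway, on chromosome 19 from 46304320 to 46312385, plus strand. It had 56.9, 59.0, 39.7 and 44.1 CPM in wt, 64.2, 55.5, 51.0 and 48.5 CPM in Zmat3-/- and 61.7, 65.9 and 50.0 CPM in TKO mice, and all groups overlapped. The log2FC against wt was 0.14 (SE 0.15) and 0.22 (SE 0.20), with 0.37 and 0.45 without wt mice 1 and 2 and −0.064 and 0.023 without wt mice 3 and 4.

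Rela encodes p65, the main transactivating subunit, on chromosome 19 from 5637483 to 5648130, plus strand, with 3.07 kb of exons. Its level was 117, 102, 61.9 and 64.2 CPM in wt, 89.9, 80.9, 75.3 and 72.9 CPM in Zmat3-/- and 76.9, 79.9 and 97.2 CPM in TKO mice. The mutant mice lay below wt mice 1 and 2 and above wt mice 3 and 4, as for Nfkbia. The log2FC against wt was −0.10 (SE 0.20) and −0.069 (SE 0.24), and became 0.32 and 0.36 without wt mice 1 and 2 and −0.44 and −0.39 without wt mice 3 and 4.

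Relb, the partner of p52, lies on chromosome 7 from 19606217 to 19629438, minus strand, and among the 10 genes it is the nearest to a deleted gene, at 3.30 Mb from Bbc3. It was the least even gene among the wt mice, with 30.5, 35.5, 13.8 and 19.0 CPM. The Zmat3-/- mice had 33.5, 27.2, 22.6 and 23.0 CPM and the TKO mice 26.1, 28.6 and 19.4 CPM. The groups overlapped, with a log2FC of 0.12 (SE 0.28) and −0.022 (SE 0.34) against wt, which was 0.68 and 0.54 without wt mice 1 and 2 and −0.29 and −0.43 without wt mice 3 and 4.

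The 10 genes differed among the wt mice along with the length of their exons. Those with the longest exons (Nfkb1, Rel, Tnfaip3 and Nfkbiz, 5.02 to 12.1 kb) were lower in wt mice 1 and 2 than in wt mice 3 and 4. Nfkb2, Relb, Rela, Nfkbid and Nfkbia (1.61 to 4.58 kb) were higher there, and so was Nfkbie by a small margin. Such a difference was also seen in the balance of long and short genes in these libraries, and its part in the differences from wt was not tested. Markers of other cells split the wt mice in the same pairs. In wt mice 1 and 2 against wt mice 3 and 4, the 6 B cell genes summed to 731 and 849 against 491 and 484 CPM, the 10 stromal genes to 223 and 217 against 155 and 177 CPM and the 10 myeloid genes to 210 and 263 against 167 and 153 CPM. The 6 genes of mature and regulatory T cells summed to 447 and 445 against 411 and 376 CPM. These lists were thus higher in the mice with more Relb, Rela and Nfkb2. The 5 erythroid genes were lower there, at 747 and 634 against 5930 and 1510 CPM. So were the 10 thymocyte genes, at 11500 and 11900 against 13500 and 12600 CPM. The part of any of these lists in the levels of the 10 genes was not tested either. The ratio of Rel to Rela, both of which form dimers with p50, was 0.232, 0.335, 0.756 and 0.740 in the wt mice, 0.530 to 0.655 for Zmat3-/- mice and 0.502 to 0.667 among TKO mice.

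**Figure D2:**
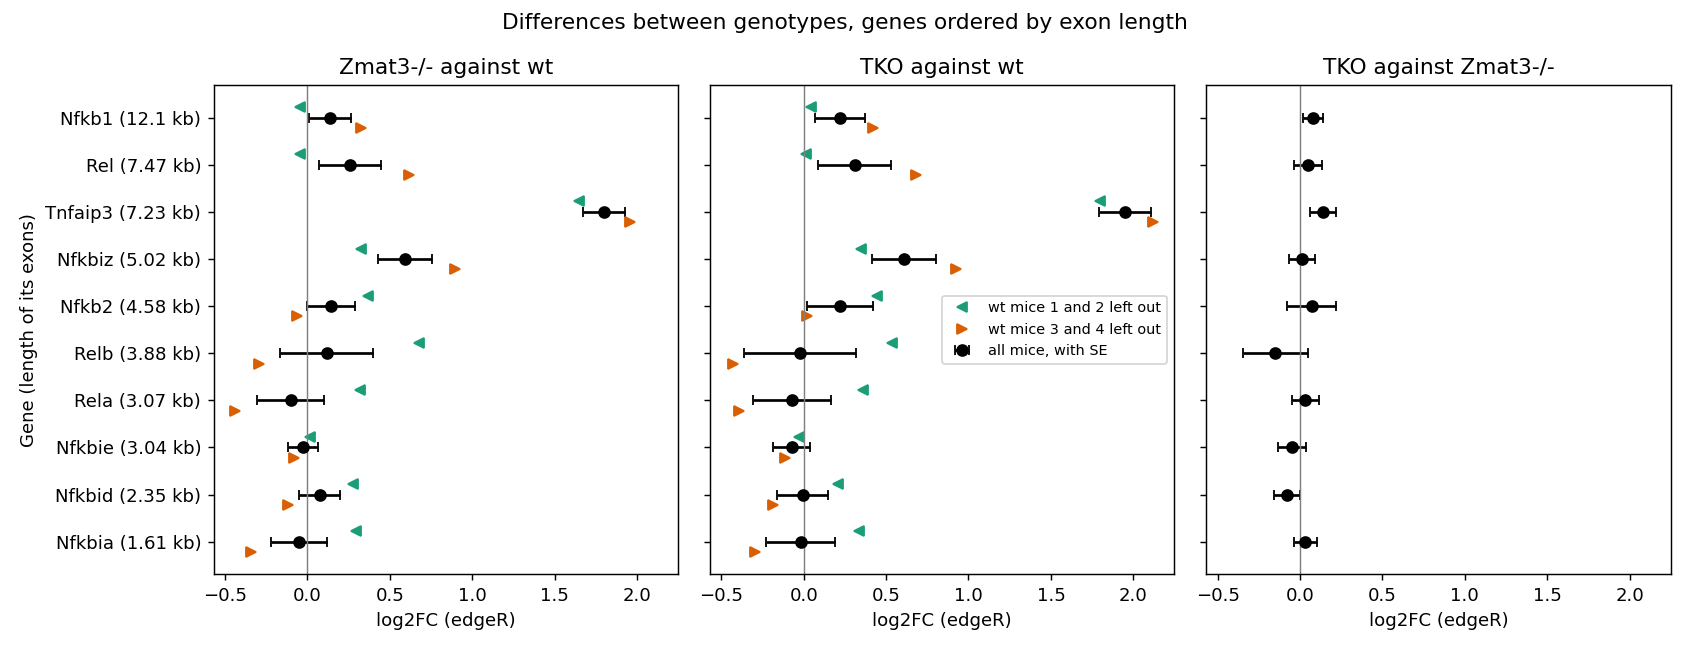
The log2FC from edgeR (horizontal axis) of the 10 genes, ordered on the vertical axis by the length of their exons, in the 3 comparisons; black points and bars are the value and SE with all mice, and triangles are values with 2 wt mice left out. Tnfaip3 is at 1.65 to 2.12 against wt in every version, while the triangles of Rela, Relb, Nfkbia and Nfkbid lie on opposite sides of 0.

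Counted over the list, 1 of the 10 genes (Tnfaip3, higher) had an edgeR adjusted p under 0.05 in Zmat3-/- against wt, where 0.764% of the 13488 genes tested did. The same gene alone did so in TKO against wt, where the share of the 13260 genes tested was 0.294%. In TKO against Zmat3-/- it was none of the 10 and 0.221% of 13124 genes, and DESeq2 called none of the 10 and 0.556% of all genes. At an unadjusted p under 0.05 there were 2 of the 10 (Tnfaip3 and Nfkbiz) in each comparison with wt and 0 in TKO against Zmat3-/-, where the shares of all genes were 16.1%, 10.3% and 4.49%. With an absolute log2FC above 1.5 required as well, the counts of the 10 stayed at 1, 1 and 0, and the shares of all genes were 0.319%, 0.241% and 0.122%. Mice of the 2 genotypes did not overlap for Tnfaip3 and Nfkbiz in Zmat3-/- against wt, for Rel, Tnfaip3 and Nfkbiz in TKO against wt and for Rel in TKO against Zmat3-/-, always with the mutant or the TKO mice higher. Over all genes tested 14.1%, 12.1% and 4.92% did not overlap. Since the genes were picked with these contrasts known, nothing is read from the counts.

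Per kb of exon, levels can be set against each other between genes, but only roughly. The length is that of all annotated exons of a gene together, not of the transcripts in use. The balance of long and short genes also differed between libraries, and its part in the order below was not tested. Averaged over the 3 genotype means, Nfkbia led with 103 CPM per kb, followed by Tnfaip3 (49.6), Rela (27.2), Nfkbie (14.8), Nfkbid (12.5), Nfkb2 (11.9), Nfkb1 (10.5), Nfkbiz (6.93), Relb (6.52) and Rel (6.02). Over the 11 mice the ranges of Rela and Nfkbie did not overlap, and those of the other 8 neighbouring pairs did. By group means Tnfaip3 was in the third place in wt mice and in the second in both mutant groups. Its level was 17.5 ± 2.28 CPM per kb in wt mice, where Rela was at 28.0 ± 8.91, and 61.1 ± 1.94 without Zmat3 alone and 70.0 ± 11.8 in TKO mice (SD, n = 4, 4 and 3), above Rela in all 7 mutant mice. Nfkbia was above Tnfaip3 in all 11 mice.

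The wider pathway was followed in 64 genes outside the 10. They were grouped as other IkB proteins and repressors, the IKK complex and its activators, the route from the T cell receptor to IKK, adaptors and ligases of TNF receptors, the enzymes and partners around A20, and target genes. Of these, 62, 61 and 62 passed the filter in Zmat3-/- against wt, TKO against wt and TKO against Zmat3-/-. Il2 and Csf2, cytokine genes of activated T cells, were at most at 0.0672 and 0.323 CPM and were not tested, and Tnip3 was not tested in TKO against wt. None of the tested genes had an edgeR adjusted p under 0.05 in any comparison. At an unadjusted p under 0.05 there were 10 (16.1%, with 16.1% of all genes tested), 3 (4.92%, with 10.3%) and 1 (1.61%, with 4.49%). DESeq2 called 4, 0 and 0 of them, the 4 being Tab2, Prkcq, Ripk1 and Tax1bp1, all higher in Zmat3-/- mice, and 8.04%, 2.87% and 0.556% of all genes. The median log2FC was 0.051, 0.032 and −0.024, beside −0.026, −0.037 and −0.0083 over all genes tested. Without wt mice 1 and 2, 17 of the 62 genes passed as higher and 2 as lower in Zmat3-/- mice, and without wt mice 3 and 4 it was 17 and 22, where 33.0% and 56.1% of all genes passed. With all mice the deleted genes did not pass against wt either. The edgeR adjusted p was 0.0786 for Zmat3 in Zmat3-/- mice. It was 0.371, 0.399 and 0.443 for Zmat3, Bbc3 and Cdkn1a in TKO mice. A gene that did not pass may thus still differ.

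Known target genes of NF-kB lay on both sides of 0. Of 17 tested targets, 9 had a log2FC above 0 and 8 below 0 in Zmat3-/- against wt and 8 above and 9 below in TKO against wt, with medians of 0.043 and −0.037. Values ran from −0.69 (Lta, the cytokine lymphotoxin α) to 0.76 (Gadd45b, a stress-response gene) in Zmat3-/- mice and from −0.61 (Lta) to 0.71 (Ier3) in TKO mice, and none passed. The medians changed sign with the wt mice used. They were 0.38 and 0.28 without wt mice 1 and 2, and −0.30 and −0.26 without wt mice 3 and 4. In the first case 7 and 2 of the 17 targets passed, all higher (33.0% and 8.15% of all genes passed), and in the other 7 and 4 passed, all lower (56.1% and 43.6%). Lta was at −0.12 and −0.055, Gadd45b at 1.56 and 1.39 and Ier3 at 1.29 and 1.51 without wt mice 1 and 2. With wt mice 3 and 4 left out instead, Lta was at −1.09 and −1.02, Gadd45b at 0.24 and 0.082 and Ier3 at −0.013 and 0.22. Bcl2l1, which encodes the survival protein BCL-XL and was the most highly expressed target, had 210 ± 53.0, 176 ± 7.71 and 183 ± 47.6 CPM in wt, Zmat3-/- and TKO mice respectively (SD, n = 4, 4 and 3), with an edgeR adjusted p of 0.492 and 0.668 against wt. Its log2FC of −0.24 and −0.26 became 0.024 and 0.020 without wt mice 1 and 2, and −0.49 and −0.48 without wt mice 3 and 4.

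Around A20 the most highly expressed gene was Tax1bp1, an adaptor that brings A20 to its substrates. It had 225 ± 10.1, 263 ± 7.39 and 274 ± 36.9 CPM in wt, Zmat3-/- and TKO mice respectively (SD, n = 4, 4 and 3), with a log2FC of 0.23 (SE 0.089, edgeR adjusted p = 0.253) and 0.24 (SE 0.12, edgeR adjusted p = 0.538). It was 0.17 and 0.18 without wt mice 1 and 2, and 0.29 and 0.30 without wt mice 3 and 4. The list had a median log2FC of 0.18 over 10 genes in Zmat3-/- and 0.16 over 9 genes in TKO mice, and of 0.088 and 0.030 without wt mice 1 and 2 and 0.29 and 0.30 without wt mice 3 and 4. Among the IKK genes Tab2, an adaptor that activates the kinase TAK1, had 184 ± 5.75, 221 ± 5.06 and 241 ± 38.1 CPM in wt, Zmat3-/- and TKO mice respectively (SD, n = 4, 4 and 3). Its log2FC of 0.27 and 0.34 had an edgeR adjusted p of 0.170 and 0.426, although no mutant mouse overlapped a wt mouse. It was 0.21 and 0.29 without wt mice 1 and 2, and 0.31 and 0.39 without wt mice 3 and 4. The median of the IKK genes was 0.20 and 0.085 with all mice, −0.060 and −0.16 without wt mice 1 and 2, and 0.34 and 0.35 without wt mice 3 and 4.

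On the way from the T cell receptor, Prkcq (protein kinase C θ) had 164 ± 8.34, 190 ± 7.99 and 191 ± 17.1 CPM in wt, Zmat3-/- and TKO mice respectively (SD, n = 4, 4 and 3), with an edgeR adjusted p of 0.265 and 0.600 against wt. Its log2FC was 0.18 to 0.22 against wt with all mice or with either pair of wt mice left out. The 4 genes of that list had medians of 0.18 and 0.17, and of 0.11 to 0.23 with a pair of wt mice left out. Rbck1 (HOIL-1, part of the linear ubiquitin ligase), the highest of the receptor adaptors and ligases, had a log2FC of −0.18 and −0.17, and Pdlim2, a ligase that removes p65 and the highest of the other repressors, −0.18 and −0.22. In the list of other IkB proteins and repressors 7 of 8 genes had a value under 0 in both comparisons with wt, with medians of −0.19 and −0.24. Without wt mice 1 and 2 it was 2 of 8, the medians were 0.22 and 0.24, Pdlim2 was at 0.21 and 0.18 and Rbck1 at −0.045 and −0.032. Without wt mice 3 and 4 it was again 7 of 8, the medians were −0.49 and −0.50, Pdlim2 was at −0.50 and −0.53 and Rbck1 at −0.31 and −0.30. The most highly expressed gene of each list was also followed with a pair of wt mice left out. Tab2, Tax1bp1 and Prkcq passed as higher in Zmat3-/- against wt with either pair left out, where 33.0% and 56.1% of all genes did. Their edgeR adjusted p was 0.0117, 0.0423 and 0.0195 without wt mice 1 and 2, and 0.00346, 0.00577 and 0.0410 without wt mice 3 and 4. Pdlim2, Rbck1 and Bcl2l1 passed as lower without wt mice 3 and 4 only (edgeR adjusted p = 0.00183, 0.00495 and 0.00376). In TKO against wt, Tab2 passed as higher without wt mice 3 and 4 (edgeR adjusted p = 0.0227, with 43.6% of all genes). Pdlim2 and Bcl2l1 passed there as lower (edgeR adjusted p = 0.0133 and 0.0467). The other values of Tab2, Tax1bp1 and Prkcq were 0.0550 to 0.219. The lists hold genes of different exon lengths, and the median log2FC of the shortest 25% of all genes was −0.22 and −0.27. That median was 0.114 and 0.101 without wt mice 1 and 2, and −0.485 and −0.561 without wt mice 3 and 4.

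**Figure D3:**
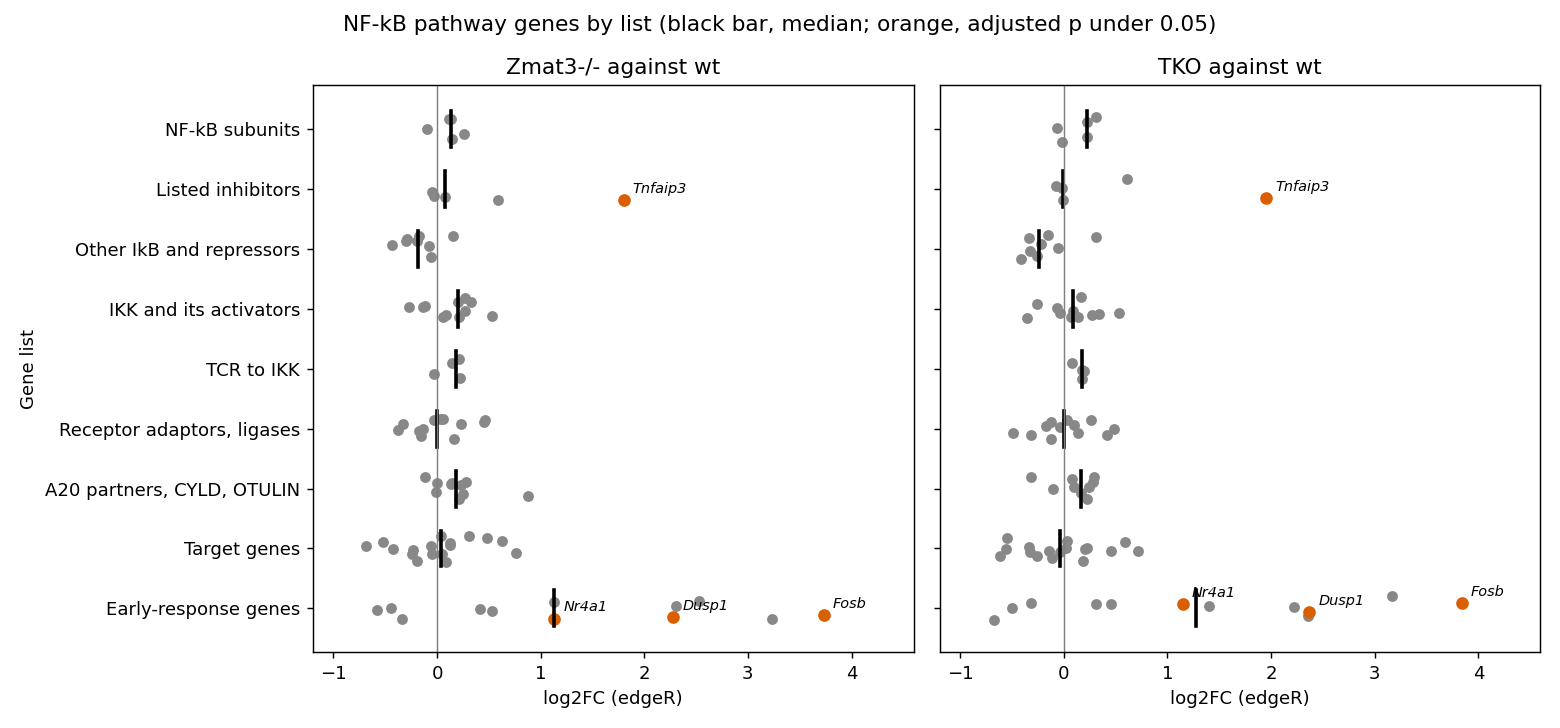
The log2FC from edgeR (horizontal axis) of every tested gene in each list of the pathway and of early-response genes (vertical axis), for Zmat3-/- and TKO against wt; black bars are list medians and orange points have an adjusted p under 0.05. Outside Tnfaip3 the orange points are the early-response genes Fosb, Dusp1 and Nr4a1, and the medians of the 6 wider pathway lists lie between −0.24 and 0.20.

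Early-response genes rise within minutes of handling or stimulation. Of 12 such genes, 9 had a log2FC above 0 and 3 below 0 in both comparisons with wt. Those that passed were Fosb, Dusp1 and Nr4a1, which rose in both, where 0.764% and 0.294% of all genes passed. Egr1, Egr2 and Btg2 were on the other side of 0, at −0.34, −0.58 and −0.45 in Zmat3-/- and −0.32, −0.67 and −0.50 in TKO mice, and did not pass in edgeR. With a pair of wt mice left out, their values were −0.78 to −0.22. At an unadjusted p under 0.05 there were 9 of the 12 in both, these 3 among them, where 16.1% and 10.3% of all genes were. DESeq2 called 9 and 7 of the 12 and 8.04% and 2.87% of all genes. In TKO against Zmat3-/-, 0 of the 12 passed, 0 had an unadjusted p under 0.05 and DESeq2 called 0, beside 0.221%, 4.49% and 0.556% of all genes. Fosb, a subunit of the AP-1 transcription factor, rose by a log2FC of 3.73 (SE 0.33, edgeR adjusted p = 0.00226) in Zmat3-/- and 3.84 (SE 0.43, edgeR adjusted p = 0.0146) in TKO mice. Its log2FC was 4.25 and 4.38 without wt mice 1 and 2 and 3.35 and 3.49 without wt mice 3 and 4. With wt mice 1 and 2 left out, 9 of the 12 passed as higher in both comparisons, with 3 lower in Zmat3-/- and 2 lower in TKO mice, and without wt mice 3 and 4 it was 6 higher in both and 3 and 2 lower. Of all genes 33.0% and 8.15% passed in the first case and 56.1% and 43.6% in the other. Summed over the 12 genes, levels were 825 to 1340, 1690 to 2070 and 1700 to 2090 CPM in wt, Zmat3-/- and TKO mice respectively, without overlap between wt and mutant mice. Fos, the best known of these genes, had 33.3 and 40.2 CPM in wt mice 1 and 2, where Tnfaip3 was at 104 and 125 CPM, and 2.78 and 3.00 CPM in wt mice 3 and 4, where Tnfaip3 was at 140 and 138 CPM. In the mutant mice Fos had 124 to 219 CPM. Wt mice 1 and 2 are also those in which long genes were counted less. The part of the early-response genes in the difference of Tnfaip3 was not tested.

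Summed markers of other cells in the thymus overlapped between wt and mutant mice, and none of these genes was at 3 counts or fewer in every mouse. The 6 genes of mature and regulatory T cells summed to 376 to 447, 355 to 405 and 364 to 435 CPM in wt, Zmat3-/- and TKO mice respectively. The 10 myeloid genes summed to 153 to 263, 194 to 263 and 137 to 288 CPM, the 6 B cell genes to 484 to 849, 463 to 509 and 516 to 534 CPM, and the 10 stromal genes to 155 to 223, 180 to 194 and 173 to 179 CPM. The 5 erythroid genes varied most, at 634 to 5930, 858 to 4210 and 2040 to 2690 CPM. Each list overlapped between wt and both mutant groups. The B cell and stromal sums did not overlap between Zmat3-/- and TKO mice. In TKO mice the B cell sums were higher and the stromal sums lower. The part of these cells in the level of Tnfaip3 was not tested.

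The genes nearest to Tnfaip3 in their pattern over the 11 mice were found among 13615 others by the root mean square difference of log2 CPM, each gene centred on its own mean. They were Trib1 (0.16), Tob2 (0.17), A130051J06Rik (0.17), Dnajb9 (0.22) and Zfp36l2 (0.29). Trib1, which encodes a pseudokinase, had 12.2 to 13.6, 52.1 to 54.5 and 49.5 to 68.3 CPM in wt, Zmat3-/- and TKO mice respectively. Tob2, an antiproliferative gene, had 65.7 to 81.2, 191 to 235 and 202 to 288 CPM, and Zfp36l2, which encodes a protein that promotes mRNA decay, had 177 to 185, 383 to 567 and 372 to 680 CPM. Dnajb9, a chaperone gene of the endoplasmic reticulum, had 18.7 to 22.7, 51.8 to 60.6 and 57.4 to 68.4 CPM. Each of the 5 was higher in all 7 mutant mice than in all 4 wt mice, as their nearness to Tnfaip3 entails. None belongs to the 10 genes, among which Nfkbiz was nearest, in place 180 (0.61), then Rel in place 1610 (0.77). Nfkbia was in place 6514.

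Nfkbia had a different set of neighbours. They were Zc3h15 (0.049), Arf1 (0.052), Arpc5 (0.059), Arpc2 (0.061) and Pitpna (0.062), among them genes of vesicle transport and of the actin network. Arf1 had 356 and 348 CPM in wt mice 1 and 2, 233 and 229 CPM in wt mice 3 and 4, and 265 to 323 CPM in the mutant mice, the order seen for Nfkbia. Their exons together were 2.03 to 4.13 kb. Of the 10 genes, Nfkbid (place 233, 0.10) and Rela (place 433, 0.12) were the nearest, and Tnfaip3 was in place 12957.

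**Figure D4:**
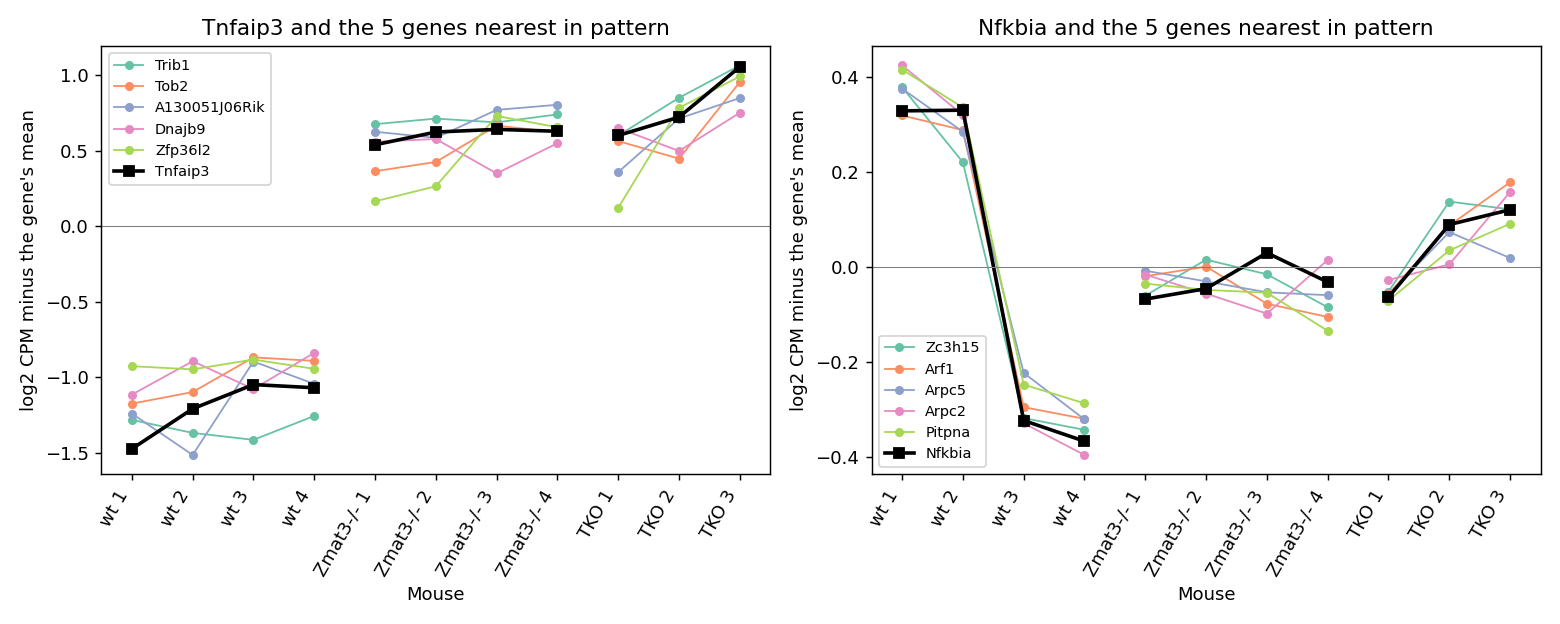
Log2 CPM minus the mean of the gene (vertical axis) in each of the 11 mice (horizontal axis), for Tnfaip3 (left, black) and Nfkbia (right, black) with the 5 genes nearest to each in pattern (colours); lines join mice of a genotype and carry no order. Tnfaip3 and its neighbours step between wt and mutant mice, while Nfkbia and its neighbours step between wt mice 1 and 2 and wt mice 3 and 4.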

How the data were processed

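Thymocyte RNA of 4 wt, 4 Zmat3-/- and 3 TKO mice was sequenced. The authors quantified paired-end reads with Salmon in nf-core/rnaseq on GRCm38 (GENCODE vM25) and deposited estimated counts per gene, all whole numbers, unnormalized. Symbols, positions and exon lengths are from GENCODE M21 (54166 of 54418 identifiers matched). A gene was tested if 20 or more counts, after scaling to the smallest library, were reached by a number of mice equal to the smaller group. Left out were 1628 genes (Xist, those on Y, rRNA, immunoglobulin pseudogenes and the like). Pairs of genotypes were compared in edgeR 4.0.16 under R 4.3.3 by the two-sided quasi-likelihood F-test after TMM scaling, with Benjamini-Hochberg adjustment over all tested genes. SE was taken as the size of log2FC over the root of F. Log2 CPM used a prior count of 2. The study's sex term was not in the labels, and its surrogate variables were an alternative (sva 3.50.0), as was DESeq2 1.42.0.

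The 10 genes and all lists were chosen with earlier results of these data known. Named genes were the 10, the deleted genes, pathway genes past the threshold (there were none), the most highly expressed gene of each list, the 5 genes nearest to Tnfaip3 and to Nfkbia, and Fos. Others were named after their values were seen. Mice with the same replicate number deviated together in Zmat3-/- and wt (r = 0.339, 0.127, 0.257 and 0.301), so a block on the number was an alternative. Mice 1 and 2 correlated more with another number (best 0.376 and 0.182), mice 3 and 4 with their own. The labels do not say what the number marks. In wt and Zmat3-/- mice alike, Xist was high in mice 1 and 2 and low in mice 3 and 4. Counting error alone allows 3 counts in the smallest library to show 0.167 CPM. Mice are separate animals by the labels' numbering, and each p-value weighs a difference between groups against the spread between mice within them. In wt mice that spread includes the split of mice 1 and 2 from mice 3 and 4.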

Additional observations from a re-analysis of the deposited data

Results flagged for a closer look

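Rel in Zmat3-/- mouse 3 lay at 42.4 CPM, apart from the other Zmat3-/- mice at 47.6, 47.7 and 47.8 CPM, with a gap of 0.964 of the group's range. This was the 1 value to stand out among 20 groups of 4 mice examined, and chance alone sets apart about 1 in 20.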

How the results depend on the processing

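The 10 genes gave 470 alternative log2FC values in the 3 comparisons. Of these 445 moved by less than the spread between mice and 25 by more. The log2FC of Tnfaip3 was 1.65 to 1.96 in Zmat3-/- and 1.80 to 2.12 in TKO against wt. The choice of wt mice mattered most, and the cause of the other shifts was not tested. In Zmat3-/- against wt the number of the 10 genes called was 2 with DESeq2, 3 with 1 surrogate variable, 7 without wt mice 1 and 2 (all higher) and 6 without wt mice 3 and 4 (4 higher, 2 lower), where 8.04%, 37.8%, 33.0% and 56.1% of all genes were called. The other pathway genes called were 4, 28, 19 and 39. In TKO against wt the 10 gave 2 with 1 surrogate variable, 2 without wt mice 1 and 2 and 5 without wt mice 3 and 4 (17.9%, 8.15% and 43.6% of all genes), and the other pathway genes 14, 3 and 25. The 2 alternatives that leave out a pair of wt mice were chosen after seeing the data. Leaving out each mouse in turn gave 1, 1 and 0 of the 10 genes and 0 other pathway genes, with 0.113% to 0.766% of all genes called against wt and 0.154% to 0.255% in TKO against Zmat3-/-. With the replicate block the calls among the 10 were 1, 1 and 0 and among the other pathway genes 0, where 0.089%, 0.121% and 0.160% of all genes were called (12 genes in Zmat3-/- against wt, from 103). Nothing is read from the counts of the 10. Same-numbered mice correlated at 0.0734 to 0.405 in TKO and wt and at 0.0102 to 0.195 in TKO and Zmat3-/- mice, so there the pairing rests on a number only.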
